A study of Mus musculus with 4 samples.

Results

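Troponin is the calcium switch of the striated muscle thin filament, and 7 genes of its subunits were described here: Tnnc1 and Tnnc2 for troponin C, Tnni1 and Tnni2 for troponin I, and Tnnt1, Tnnt2 and Tnnt3 for troponin T. They were taken as every non-control probe of the array that the scanner files name for 1 of these genes. That gave 7 of the 21164 genes named on the array and 10 of its 41174 probes, with 2 probes each for Tnni1, Tnnt2 and Tnnt3 and 1 for each other gene. All 10 were among the 27024 probes tested. On every array each of them was well above background with both dyes, none was saturated and none was marked as an outlier spot.

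The cells were C2C12, an established line of mouse myoblasts that withdraw from the cell cycle and fuse into myotubes when serum is lowered. Cultures grown in 10% fetal bovine serum to 80% confluence were differentiated for 6 days, in horse serum. The labels disagree on its share, at 2% in the protocol and 10% in the names of the RNA sources. Treated cultures received recombinant human follistatin 288 at 200 ng/ml every 24 h, and the control cultures were untreated over the same 6 days. Each of 4 biological replicates was 1 array that set both cultures against each other. The labels call all 4 arrays dye swaps but give them the same dyes, Cy3 for follistatin and Cy5 for the control, so a dye effect particular to a probe adds to its ratio. The cells are a clonal line in culture, without nerve or load.

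In the troponin complex, troponin C binds calcium, troponin I holds the actomyosin ATPase off when calcium is low, and troponin T anchors the complex to tropomyosin. Fast fibres use Tnnc2, Tnni2 and Tnnt3, and slow fibres use Tnnc1, Tnni1 and Tnnt1. The heart shares Tnnc1 with slow fibres, and its troponin T, Tnnt2, is also made for a time in embryonic and cultured skeletal muscle. Troponin genes are switched on as myoblasts differentiate. Follistatin binds myostatin and activins and keeps them from their receptors, and is known for increasing muscle mass.

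No troponin probe passed the test. With limma and Benjamini-Hochberg adjustment over all tested probes, 0 of the 10 troponin probes and 2 of the 27024 tested (0.0074%) were called at an adjusted p under 0.05. The lowest adjusted p of a troponin was 0.107, for the fast troponin C gene Tnnc2, whose signal was 1.85-fold lower with follistatin. The other fast gene with a lower signal on every array was Tnni2, at a mean log2 ratio of -0.43. Tnnc1 had a mean of -0.45, Tnni1 lay near 0 on average with wide scatter, and the troponin T genes lay between -0.0073 and 0.30 on their brightest probes. A second, dim Tnnt2 probe was lower on every array, at a mean of -0.93 (limma adjusted p = 0.166). In RNA of whole cultures, fewer myotubes and less troponin RNA per myotube cannot be told apart. Every value below is a log2 ratio of follistatin over untreated processed signal or such a signal in scanner units, which were dye-normalized within each array only.

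**Figure D1:**
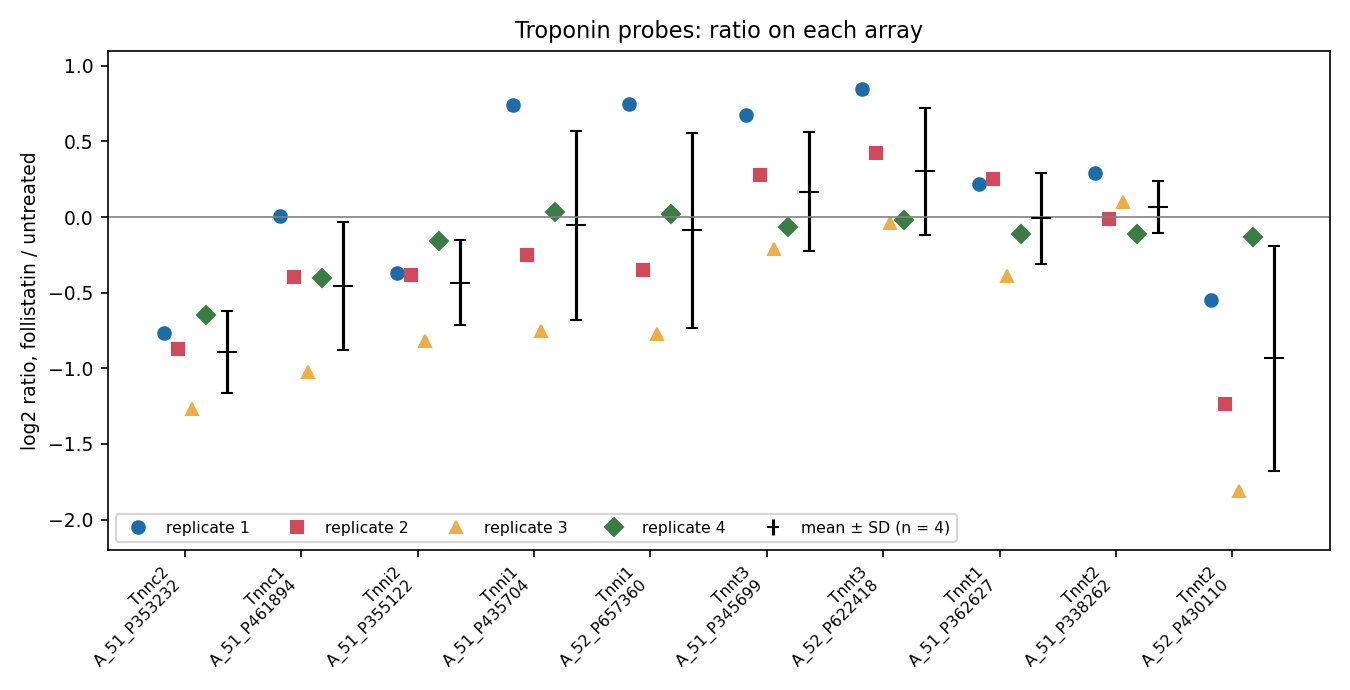
Log2 ratio of follistatin over untreated processed signal (y axis) for each troponin probe (x axis); symbols are the 4 arrays and the black bar is the mean ± SD (n = 4). Tnnc2 sits between -1.27 and -0.65 on all 4 arrays, while the Tnni1 probes run from -0.77 to 0.75.

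Tnnc2, the troponin C of fast fibres, was read by probe A_51_P353232 at chr2:164602661-164602720 (mm9, minus strand, per the scanner files). No gene annotation of mm9 was used here, so exons and untranslated regions were not assigned. The last 30 bases of the probe are shown because they hold AATAAA, the letters of the common polyadenylation signal, in capitals, as do the last 30 bases of the Tnni2 probe. Both probes of the fast genes with lower signals on every array carry this hexamer, which no other troponin probe does. The probe A_52_P430110 of Tnnt2, also lower on every array, lacks it. How many of all tested probes carry it was not counted, and a link to the ratios was not tested.
Tnnc2 A_51_P353232, bases 31 to 60: actggaaggAATAAAagttgacaatgtaaa
Tnni2 A_51_P355122, bases 31 to 60: gggagtacttggcctcgctccAATAAAgga

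The follistatin signals of Tnnc2 were 420903, 396876, 278667 and 395422 on replicates 1 to 4. The untreated signals were 715976, 726589, 672716 and 618896. All 4 follistatin signals lay below all 4 untreated signals, so the groups did not overlap, and the lowest follistatin signal was that of replicate 3. The log2 ratios were -0.77, -0.87, -1.27 and -0.65, a mean of -0.89 ± 0.27 (SD, n = 4). The limma standard error was 0.183, the 95% interval ran from -1.33 to -0.45, and the unadjusted p was 0.00215 (limma). Of all tested probes, 5.75% had a lower mean. With replicates 2 and 3 averaged and counted as 1, the mean was -0.83 and the adjusted p 0.307 (limma). Within slide 1, which held replicates 1, 2 and 3, the mean was -0.97 (limma adjusted p = 0.0689), and on slide 2, which held only replicate 4, the ratio was -0.65. Slide and replicate cannot be told apart there.

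Tnnc1, the troponin C shared by slow fibres and heart, was read by probe A_51_P461894. Its 60 bases span chr14:32023360-32023776 (mm9), 417 bases of the genome, so the probe aligned across a gap. The sequence is shown because Tnnc1 and Tnnc2 encode related proteins, and it shared at most 19 bases with the Tnnc2 probe in any ungapped alignment (32.2% of the 59 aligned).
Tnnc1 A_51_P461894: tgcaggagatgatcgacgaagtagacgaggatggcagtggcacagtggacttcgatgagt

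For Tnnc1 the follistatin signals were 74083, 71291, 46189 and 80865, against untreated signals of 73883, 93673, 93961 and 106912. The groups overlapped, because replicate 1 gave almost the same signal in both channels while the other 3 were lower with follistatin. The ratios of 0.0039, -0.39, -1.02 and -0.40 had a mean of -0.45 ± 0.42 (SD, n = 4; limma adjusted p = 0.28), with a 95% interval from -0.97 to 0.057. Tnnc2 was lower than Tnnc1 in ratio on every array, by a log2 difference of -0.77, -0.48, -0.25 and -0.24, a mean of -0.43 ± 0.25 (SD, n = 4).

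The troponin C genes are shown with the 250 bases before their start (RefSeq, GRCm38.p6), since both had negative means. Capitals mark matches to the E-box CANNTG, bound by MyoD family factors, and to the MCAT letters CATTCC, bound by TEAD factors, read on both strands. Tnnc2, chr2:164779735-164779984 on the minus strand, held 2 E-boxes, and Tnnc1, chr14:31208062-31208311 on the plus strand, held 2 E-boxes and 1 MCAT match, written GGAATG on this strand. No match overlapped another.
Tnnc2 promoter: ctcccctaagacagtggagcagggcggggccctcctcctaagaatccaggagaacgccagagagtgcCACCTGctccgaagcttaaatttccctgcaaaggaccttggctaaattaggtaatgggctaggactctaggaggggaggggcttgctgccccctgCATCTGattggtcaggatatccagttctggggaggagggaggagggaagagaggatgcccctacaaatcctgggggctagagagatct
Tnnc1 promoter: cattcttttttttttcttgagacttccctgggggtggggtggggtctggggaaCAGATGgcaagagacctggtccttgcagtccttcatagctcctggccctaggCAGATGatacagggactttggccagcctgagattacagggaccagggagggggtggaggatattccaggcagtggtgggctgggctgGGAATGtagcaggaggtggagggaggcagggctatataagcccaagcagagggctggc

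Promoter sequences were matched for 5 of the 7 genes, giving 7 promoters. Every one of the 7 held at least 1 E-box, which 66.2% of all 32851 promoters of this length hold. The promoters of Tnni1 overlap and share E-boxes, so the 7 are not separate sequences. MCAT letters were found in 1 promoter each of Tnnc1 and Tnnt2, against 12.6% of all promoters. The MEF2 and CArG motifs, searched as letter patterns on both strands, are found in 2.9% and 1.5% of all promoters and in 0 of these 7. A match is a description of letters and was not set against the ratios.

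Tnni2, the troponin I of fast fibres, was read by probe A_51_P355122 at chr7:149630241-149630300 (mm9, plus strand). Its follistatin signals were 274530, 296796, 200149 and 298790, and its untreated signals were 354238, 386313, 353935 and 334091. As for Tnnc2, the groups did not overlap, and replicate 3 was lowest with follistatin while replicate 4 had the smallest gap. The ratios were -0.37, -0.38, -0.82 and -0.16, with a mean of -0.43 ± 0.28 (SD, n = 4). The 95% interval, -0.87 to 0.0082, included 0 (limma adjusted p = 0.247), and 16.9% of tested probes had a lower mean.

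Tnni1, the troponin I of slow fibres, had probes A_51_P435704 at chr1:137704148-137705229 and A_52_P657360 at chr1:137705328-137706203 (mm9, plus strand). Both aligned across gaps in the genome. On the brighter probe, A_52_P657360, the follistatin signals were 75701, 61333, 43008 and 65227 and the untreated signals 45098, 78092, 73440 and 64325. Replicate 1 was higher with follistatin, replicates 2 and 3 were lower, replicate 4 was nearly level, and the groups overlapped. The ratios of 0.75, -0.35, -0.77 and 0.020 gave a mean of -0.088 ± 0.64 (SD, n = 4; limma adjusted p = 0.869).

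On the other Tnni1 probe the follistatin signals were 36581, 33469, 25812 and 35067, the untreated signals 21839, 39741, 43442 and 34220. Its ratios were 0.74, -0.25, -0.75 and 0.035, with a mean of -0.055 ± 0.62 (SD, n = 4; limma adjusted p = 0.918). The probes lie 98 bases apart in the genome and their ratios differed by at most 0.10 on any array, so the scatter of Tnni1 was between arrays and not between probes. Tnni2 was lower than Tnni1 by -1.12 on replicate 1, and by -0.032, -0.050 and -0.18 on the others.

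Tnnt3, the troponin T of fast fibres, had probes A_51_P345699 at chr7:149698500-149700262 and A_52_P622418 at chr7:149698254-149698479 (mm9, plus strand). Tnnt2, the cardiac troponin T, had probe A_51_P338262 at chr1:137747976-137748288 (mm9, plus strand). Of all pairs of troponin probes, A_51_P345699 and A_51_P338262 were the most alike in sequence, with 29 of 44 aligned bases identical (65.9%) and a longest shared run of 8. They are shown with the identical bases in capitals.
Tnnt3 A_51_P345699: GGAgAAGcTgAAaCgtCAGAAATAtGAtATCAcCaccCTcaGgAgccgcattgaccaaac
Tnnt2 A_51_P338262: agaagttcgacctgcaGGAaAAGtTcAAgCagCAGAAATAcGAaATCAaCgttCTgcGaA

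On its brighter probe, A_52_P622418, Tnnt3 had follistatin signals of 89959, 96661, 67155 and 81511 and untreated signals of 50014, 72049, 68980 and 82721. Replicates 1 and 2 were higher with follistatin, replicates 3 and 4 were nearly level, and the groups overlapped. The ratios were 0.85, 0.42, -0.039 and -0.021, a mean of 0.30 ± 0.42 (SD, n = 4; limma adjusted p = 0.441), which was 0.12 without replicate 1. On A_51_P345699 the follistatin signals were 52889, 62149, 43358 and 58050 and the untreated signals 33193, 51239, 50255 and 60835. Its ratios of 0.67, 0.28, -0.21 and -0.068 had a mean of 0.17 ± 0.39 (SD, n = 4; limma adjusted p = 0.663). On both probes replicate 1 was highest and replicate 3 lowest, and A_51_P345699 gave the lower ratio on every array, by at most 0.17.

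Tnnt1, the troponin T of slow fibres, was read at chr7:4460086-4460145 (mm9, minus strand) by probe A_51_P362627. Its follistatin signals were 88777, 119564, 71750 and 101019, its untreated signals 76413, 100547, 93792 and 108934. Replicates 1 and 2 were higher and replicates 3 and 4 lower with follistatin, and the groups overlapped. The ratios of 0.22, 0.25, -0.39 and -0.11 gave a mean of -0.0073 ± 0.30 (SD, n = 4; limma adjusted p = 0.986). The 95% interval of -0.46 to 0.44 does not show that Tnnt1 was the same in both cultures.

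Tnnt2 was measured at signals of 121761, 130360, 127714 and 129489 with follistatin and 99369, 131676, 118978 and 139744 without, on A_51_P338262. The follistatin signals lay within the untreated range, and the ratios of 0.29, -0.015, 0.10 and -0.11 had the smallest spread of the 10 probes, a mean of 0.068 ± 0.17 (SD, n = 4; limma adjusted p = 0.839). The other Tnnt2 probe, A_52_P430110 at chr1:137735641-137735700 (mm9, plus strand), lies 12.3 kb away and comes from a cDNA clone. Its first 30 bases are shown because this probe gave a different result from the first.
Tnnt2 A_52_P430110, bases 1 to 30: taatcttgacattctgtttcatacaccaca

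A_52_P430110 was dim, with follistatin signals of 319, 244, 160 and 733 and untreated signals of 466, 576, 562 and 803. Follistatin was the lower channel on all 4 arrays, but the groups overlapped because both channels of replicate 4 were bright. The ratios of -0.55, -1.24, -1.81 and -0.13 had a mean of -0.93 ± 0.74 (SD, n = 4), and limma gave a p of 0.0173 before and 0.166 after adjustment. The ratios of the Tnnt2 probes differed by 0.84, 1.22, 1.92 and 0.022 on replicates 1 to 4, a mean of 1.00, so the gene has no single ratio here. Which transcripts each probe reads was not tested.

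**Figure D2:**
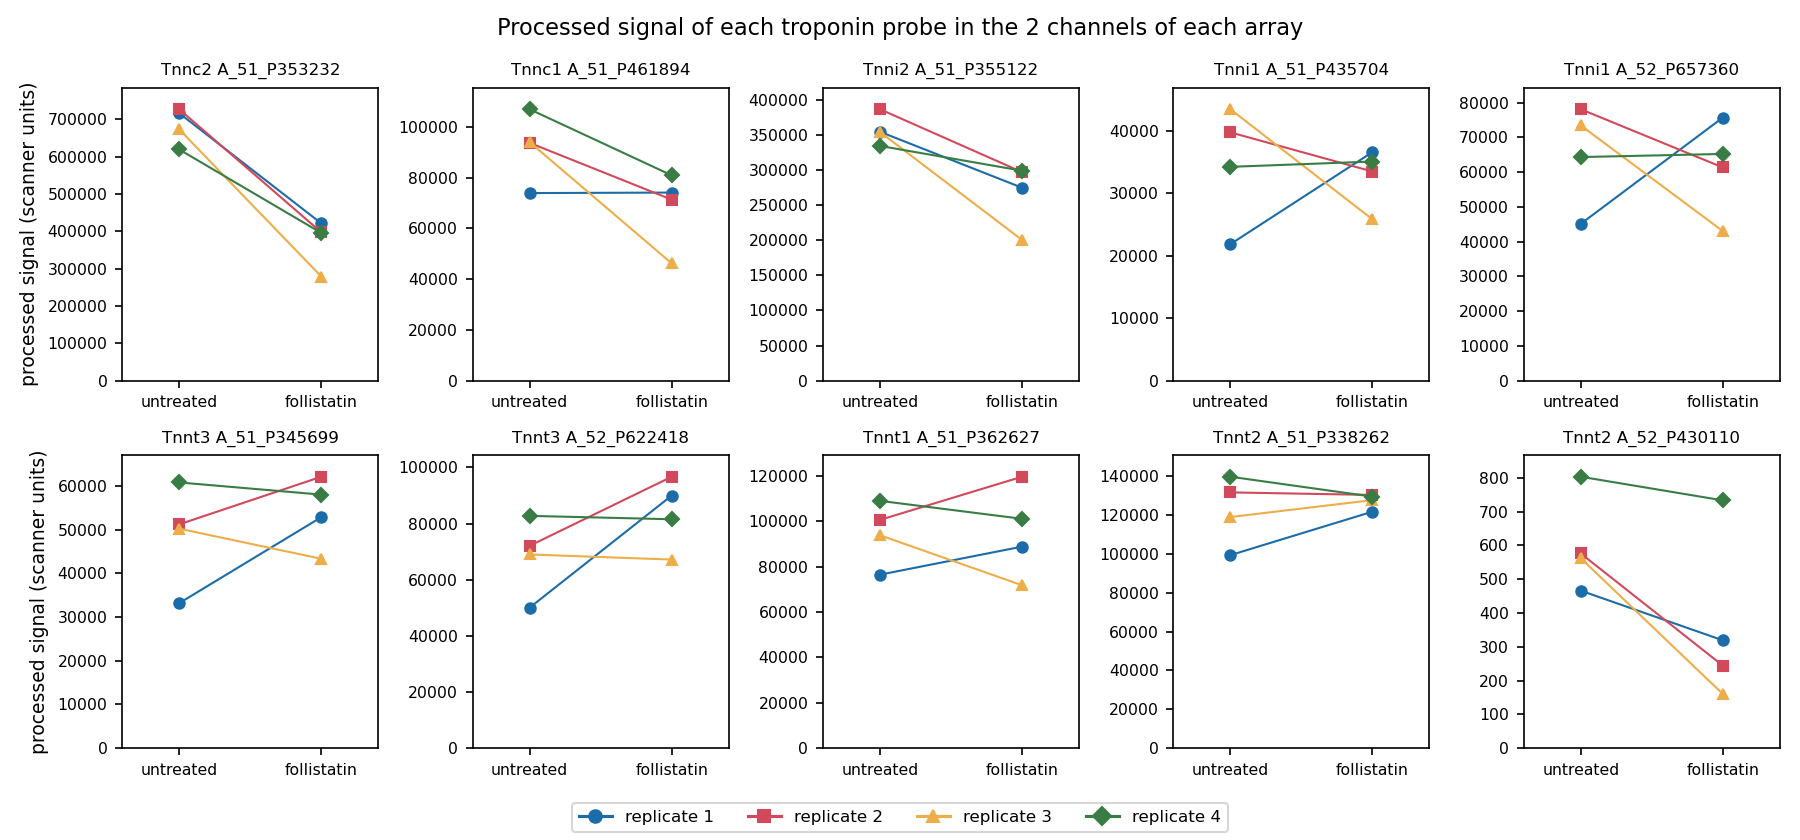
Processed signal in scanner units (y axes, each from 0 and each with its own scale) in the untreated and follistatin channels, with 1 panel per troponin probe and 1 line per array. All 4 lines go down for Tnnc2 and Tnni2, whose channels do not overlap, and for the dim Tnnt2 probe A_52_P430110, whose channels do.

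These counts are set against all tested probes. Of the 10 troponin probes, 3 were lower with follistatin on all 4 arrays (Tnnc2, Tnni2 and Tnnt2 A_52_P430110), as were 14.5% of tested probes. None was higher on all 4, as were 13.7%. The follistatin and untreated signals did not overlap, with follistatin lower, for 2 of the 10, and for 6.75% of tested probes. They did not overlap with follistatin higher for 0 of the 10, and for 6.69%. Without replicate 1, 4 troponin probes were lower on every array (21.9% of tested probes) and 3 did not overlap (12.5%), Tnnc1 being the addition to both. Without replicate 4, 3 did not overlap (18.6%), the addition being the dim Tnnt2 probe. These counts over fewer arrays were chosen after seeing the data. At an unadjusted p under 0.05, 2 of 10 were lower (Tnnc2 and Tnnt2 A_52_P430110) and 0 higher, against 10.8% and 9.93% of tested probes. The median ratio of the troponin probes was -0.072, and that of all tested probes 0.014. The median SD over arrays was 0.41 for the troponin probes and 0.43 for all tested.

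**Figure D3:**
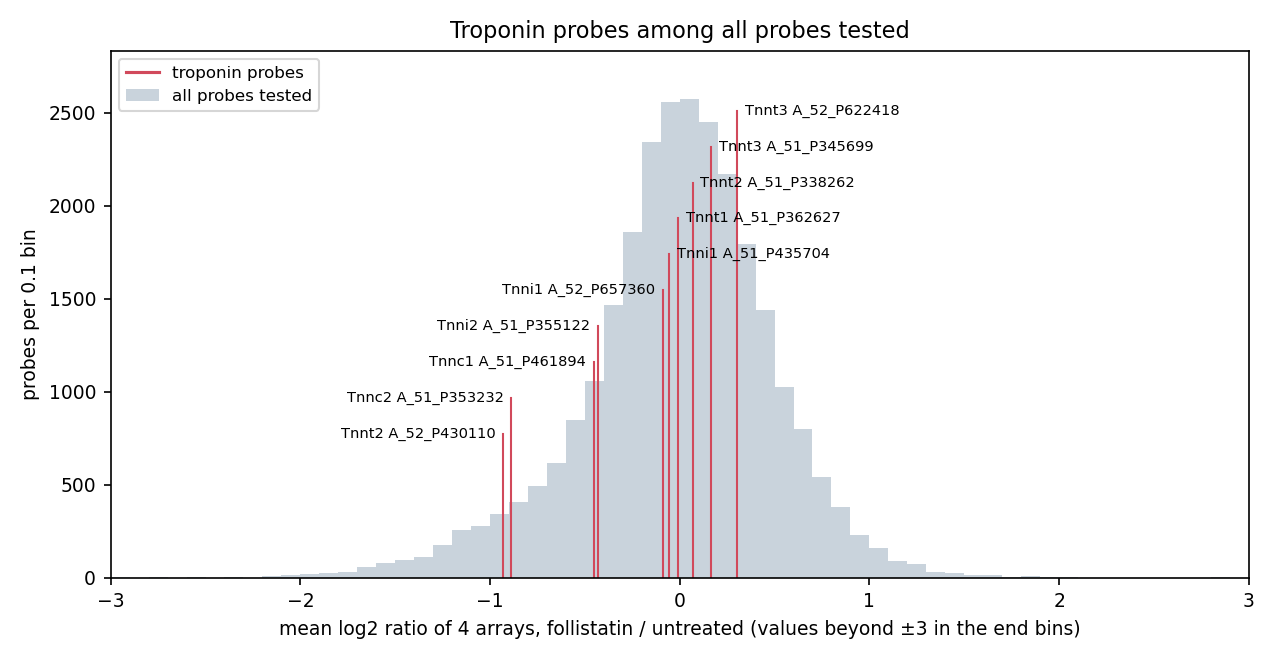
Number of tested probes (y axis) by mean log2 ratio of 4 arrays (x axis, bins of 0.1), with the 10 troponin probes as red lines at their means; line heights only separate the names. Tnnt2 A_52_P430110 at -0.93 and Tnnc2 at -0.89 lie in the lower tail, and Tnnt3 A_52_P622418 is the highest troponin at 0.30.

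The arrays differed in where the troponins lay. Of the 10 probes, 3 were below 0 on replicate 1, 7 on replicate 2, 9 on replicate 3 and 8 on replicate 4, while 48.3% to 51.3% of tested probes were below 0 on each array. The troponin median was 0.25, -0.30, -0.76 and -0.11 on replicates 1 to 4. Over all tested probes, replicates 2 and 3 correlated at r = 0.817 (rho = 0.806), and the other 5 pairs of arrays at r between 0.0379 and 0.318 (rho 0.0328 to 0.349). These are correlations across probes, which are not independent, and every p counts replicates 2 and 3 as separate unless it is said to average them or leave 1 out. The share of spots well above background was 61.1% to 65.2% for follistatin RNA and 61.4% to 69.4% for untreated RNA.

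Side by side, the ratios of the fast genes lay apart. Tnnc2 lay below Tnni2 by a log2 difference of -0.40, -0.49, -0.45 and -0.49, a mean of -0.46 ± 0.043 (SD, n = 4), the steadiest difference of the 9 pairs of genes set side by side. Tnnt3 lay above both: Tnnc2 minus Tnnt3 was -1.61, -1.30, -1.23 and -0.63. Tnni2 minus Tnnt3 was -1.21, -0.80, -0.78 and -0.14. With each gene by its brightest probe, the mean of the 3 fast genes was -0.34 ± 0.26 and that of the 4 slow and cardiac genes -0.12 ± 0.34 (SD over 4 arrays), given as a description with no test.

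The neighbours on the chromosomes also differed among themselves. In the RefSeq gene order (GRCm38.p6), Tnni2 and Tnnt3 have 1 protein-coding gene between them, and so have Tnni1 and Tnnt2. The fast neighbours Tnni2 and Tnnt3 had means of -0.43 and 0.30. The slow and cardiac neighbours Tnni1 and Tnnt2 differed by 0.45, -0.33, -0.87 and 0.13 on replicates 1 to 4, with no common sign.

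Partners and relatives of the troponins were read from gene lists, with 1 probe per gene, the brightest. In all lists 0 genes were called by limma at an adjusted p under 0.05. At an unadjusted p under 0.05 there were 1 lower thin filament partner, 4 lower fast fibre genes, 2 higher slow fibre genes, 1 lower developmental gene and 1 lower regulator, of 17, 14, 11, 8 and 18 measured. Of all tested probes, 10.8% were lower and 9.93% higher at that p. Among 17 measured partners in the thin filament, 6 had a negative and 11 a positive mean, with a median of 0.12. The 4 of smallest p were Neb, the giant actin ruler nebulin, at -1.62 (limma adjusted p = 0.175), the tropomyosin Tpm1 at 0.45, the pointed-end cap Tmod4 at 0.60 and the nebulin stabiliser Klhl40 at -0.58. Neb ranged from -3.68 on replicate 3 to -0.22 on replicate 4, and its other 5 probes lay between -1.32 and -0.64 or were not tested. Tpm1, to which troponin T binds, was positive on 3 of 4 arrays.

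Of 14 fast fibre genes, 11 had a negative mean and the median was -0.40, with 4 lower on all 4 arrays, as were 14.5% of tested probes. Those 4 were Sypl2, a triad membrane protein, at -0.72, the fast myosin-binding protein Mybpc2 at -0.61, and the fast myosin heavy chains Myh1 at -0.57 and Myh4 at -0.50 (limma adjusted p 0.149 to 0.196). The other probes of Myh1 and Myh4 lay nearer 0, at -0.22 and -0.23. Of 11 measured slow fibre genes, 5 were negative and 6 positive, with a median of 0.026. Higher on all 4 arrays were 4 of the 11, as were 13.7% of tested probes. Mybpc1, the slow myosin-binding protein, had a mean of 0.43 and the calcium store protein Casq2 0.51, against -0.58 for Myl6b and -0.48 for Myl3, both slow myosin light chains. The other probe of Myl6b had the opposite sign, at 0.39, and that of Myl3 lay at -0.066. Sln, the calcium pump regulator sarcolipin, was named after its values were seen: it was higher on all 4 arrays at a mean of 1.12 (limma adjusted p = 0.111). Its probe was not well above background with both dyes on every array. The share of all tested probes with a negative mean was 48.7%.

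Of 8 developmental and cardiac muscle genes, 3 had a negative and 5 a positive mean, with a median of 0.080. Casq2, also in this list and positive on all 4 arrays, was at 0.51. The neonatal myosin Myh8 was at -0.40 on its brightest probe, but between 0.018 and 0.48 on its other tested probes. The embryonic myosin Myh3 was at -0.55 and the Z-disc protein Actn2 at -0.30. Of 18 measured regulators of muscle transcription, 11 were negative, with a median of -0.12. Mef2c, a MADS-box factor, was at -1.03, with 0.12 on replicate 4 and negative values on the other 3. The myogenic factor Myog was at -0.34 and negative on all 4 arrays, while Myf6 was at 0.33 and the homeobox factor Six4 at 0.38, both positive on all 4.

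**Figure D4:**
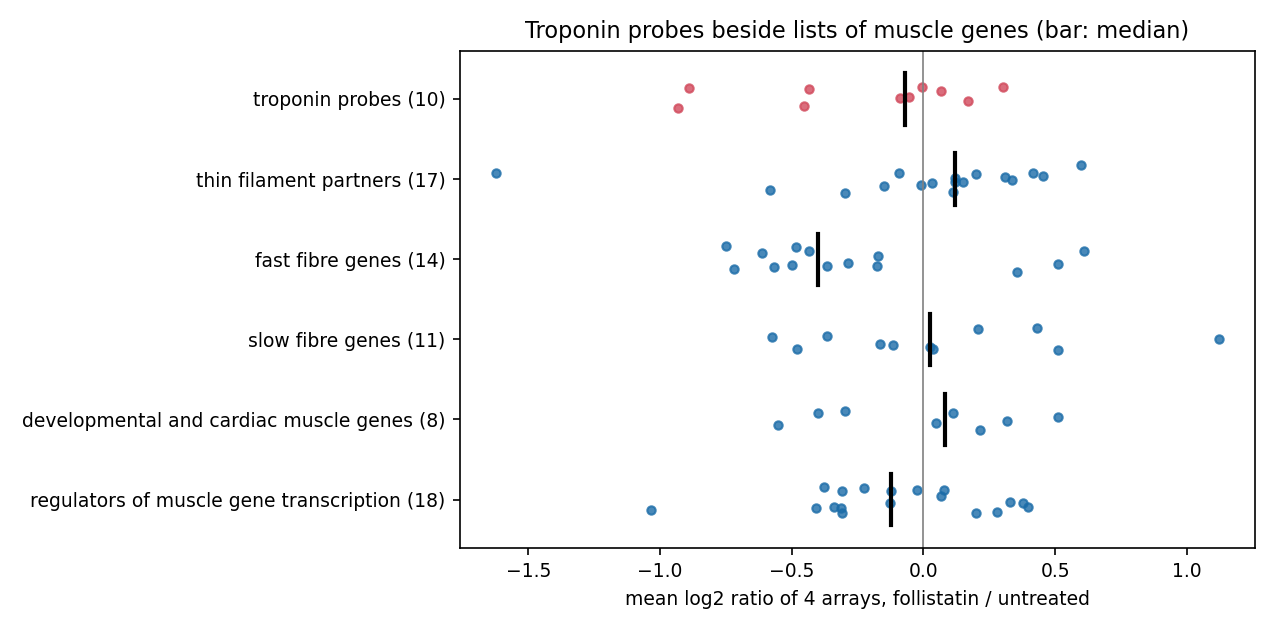
Mean log2 ratio over 4 arrays (x axis) of the 10 troponin probes and of the genes of 5 lists (rows, number measured in brackets); each point is a probe or gene and the bar is the median. The fast fibre genes have the lowest median, -0.40, and the troponin probes straddle 0.

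Markers of the states of such cultures, and of fibroblasts and other lineages, were read beside the troponins. In a clonal line, signal of the latter markers does not show that such cells were present. Of 8 myotube markers, 6 had a negative mean, as had 48.7% of tested probes, and 2 were lower on all 4 arrays, as were 14.5%. The median ratio of these 8 markers was 0.86 on replicate 1, and -0.39, -0.53 and -0.48 on replicates 2 to 4. Their summed signal was 676808 to 978680 with follistatin and 855494 to 1166377 without. Of 7 markers of undifferentiated or reserve myoblasts, 6 were measured, at sums of 22264 to 27486 with follistatin and 21214 to 28535 without, and Pax3 did not pass the filter on dim probes. For 5 markers of cycling cells, 4 had a positive mean, and the sums were 5276 to 7350 with follistatin and 4673 to 5113 without, which do not overlap. Single probes did not overlap in that direction for 6.69% of those tested, and no such share was computed for sums of probes. Of the cycling markers, Top2a at 0.87, Cdk1 at 0.59 and Mki67 at 0.42 were higher at an unadjusted p under 0.05 and positive on all 4 arrays (limma adjusted p 0.102, 0.166 and 0.232). Among all tested probes, 9.93% were higher at that p and 13.7% were higher on all 4 arrays. Ccnb1 was at 0.31 with mixed signs. Bub1 was at -0.31 and negative on all 4 arrays, but its other probe was at 0.65. Of 5 fibroblast markers, 4 were measured, all with a positive mean, at sums of 8886 to 16024 with follistatin and 8508 to 12899 without, and Tcf21 did not pass. Dpt, a dermal matrix protein, was at 1.52 and positive on all 4 arrays (limma adjusted p = 0.102). Myh8 was the only myotube marker at an unadjusted p under 0.05, and no marker was called. The single markers named here were chosen after their values were seen. Of 12 markers of other lineages, 7 were measured, at sums of 6322 to 8232 and 5535 to 10770, and Epcam, Pecam1, Cdh5, Ptprc and Adipoq did not pass. The part of myotube, reserve myoblast and cycling states in the troponin ratios was not tested.

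Genes were also ranked by how closely their 4 ratios followed the mean troponin profile of 0.14, -0.19, -0.60 and -0.20, each gene by its brightest probe. Among 21439 probes above background with both dyes throughout, the nearest by root mean square difference over the 4 arrays were Sox8 (0.0293), Cplx3 (0.0315), Zbtb11 (0.0523), Mylpf (0.0545) and 4933415A04Rik (0.0587). Mylpf encodes the regulatory light chain of fast myosin, and its ratios were 0.14, -0.17, -0.51 and -0.15. The probe nearest to Tnnc2 was that of Gm9856 (0.0589), and that nearest to Tnni2 was Mtarc2 (0.0438). For the other members the nearest were Snx29 to Tnnc1 (0.0755), Ninj1 to Tnni1 (0.0728), Lix1 to Tnnt1 (0.0616), Mrpl24 to Tnnt2 (0.027) and Sppl2a to Tnnt3 (0.0806). With 4 arrays, many probes follow any given profile closely, and the ranks describe these arrays only.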

How the data were processed

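The deposited spot intensities come from Agilent Feature Extraction. The submitters' processing notes give its version as 10.7.3.1, and the file headers give 10.10.1.1 for replicate 4. The processed intensity used here had its background removed and its dyes balanced array by array, per the file headers. The deposited log10 ratio is Cy5 over Cy3 and was read only for its direction. The deposited log2 values of the authors equal the log2 of processed Cy3 over Cy5 (r = 1, slope 1; column medians -0.16, 0.17, 0.13 and 0.11), so scale, centring and direction are known.

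Control and outlier spots were left out, spots of a probe averaged on the log2 scale, and a probe was tested if 1 dye was well above background on 3 or more of the 4 arrays. The ratio was tested against 0 with limma 3.58.1 (statmod 1.5.0, data.table, version 1.17.8, R 4.3.3; Benjamini-Hochberg, threshold 0.05), checked on simulated data. The simulated arrays were independent and had less scatter than the real ones. The check therefore does not cover the real scatter or the likeness of replicates 2 and 3. Per the series' design text, the authors used an unpaired t-test and a 1.6-fold minimum; here this was run as the methods' t-test. The number of arrays limits the precision.

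The members and the gene lists were chosen with earlier results of these data known. The text names every member probe, from each list the 4 genes of smallest p that were bright with both dyes throughout, and the genes nearest in profile. Gene names were updated through RefSeq (GRCm38.p6): 27479 probes matched by accession and 6157 by symbol or synonym, 1262 kept the file's name and 6276 had none. Alternatives were other signals, centring, filters, replicates left out or averaged, slide, array weights, the authors' table and the methods' t-test. No column belonged to a sample outside the series.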

Additional observations from a re-analysis of the deposited data

Results flagged for a closer look

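The follistatin signal of Tnnc2 on replicate 3 stood apart from the other 3 arrays, at a log2 signal of 18.1 (278667 in scanner units). Its gap to the nearest of the others, over the range of the 4, was above Dixon's 95% value of 0.829. Of 30 groups of 4 values tested over the troponin probes, this was the only one, and chance gives about 1 in 20. Without replicate 3 the mean log2 ratio of Tnnc2 was -0.76 (limma adjusted p = 0.434), with follistatin lower on each of the remaining 3 arrays.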

How the results depend on the processing

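Of 147 troponin ratios recomputed over 15 alternatives, 133 kept their sign and their side of the threshold, 3 passed it and 11 changed sign. The alternatives that changed only the filter, the outlier spots, the probes per gene or the test returned the main ratios. So did the authors' table, and in none of these could a sign change. The 2 probes called over the whole array, Olfr1299 at -2.92 and Ces3b at -3.23 (both limma adjusted p = 0.0111, named after their values were seen), were lost in several settings. The count was 0 with normexp and loess, with a filter asking for both dyes above background everywhere, with the slide as a fixed block, with replicates 2 and 3 averaged, and 0 to 0 when any replicate was left out. Array weights were 0.479, 2.55, 1.89 and 0.433 for replicates 1 to 4, so that setting rested on the alike replicates 2 and 3. With them the count was 7942 of the 27024 tested probes. In that setting 3 of the 10 troponin probes were called, a share close to that of all tested probes. The 3 were Tnnc2 at -0.99 (limma adjusted p = 0.0155), Tnni2 at -0.52 (0.047) and Tnnt2 A_52_P430110 at -1.29 (0.0166). The other alternatives called 0 troponin probes. Over all alternatives Tnnc2 ranged from -1.07 to -0.76 (adjusted p 0.0155 to 0.434), Tnni2 from -0.55 to -0.30 (0.047 to 0.744), Tnnc1 from -0.61 to -0.26 (0.0535 to 0.79) and Tnnt2 A_52_P430110 from -1.29 to -0.62 (0.0166 to 0.553). The methods' t-test gave 2423 of 26993 tested probes with an unadjusted p under 0.05 and a 1.6-fold difference. Of the 10 troponin probes 1 was among them (Tnnc2), a share close to that of all tested probes. After adjustment it called 3 probes, 2 of them past 1.6-fold.

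Sign changes were among ratios near 0, and their cause was not tested. Leaving out each replicate in turn gave -0.093 to 0.12 for Tnnt1, -0.0074 to 0.13 for Tnnt2 A_51_P338262, -7e-04 to 0.29 and 0.12 to 0.42 for Tnnt3 A_51_P345699 and A_52_P622418, and -0.32 to 0.18 and -0.37 to 0.14 for Tnni1 A_51_P435704 and A_52_P657360. Tnnt2 A_51_P338262 was -0.012 with normexp and loess and -0.0074 without replicate 1. Tnnt3 A_51_P345699 was -7e-04 without replicate 1. Tnni1 A_51_P435704 was 0.0095 without replicate 2, 0.18 without replicate 3 and 0.093 with replicates 2 and 3 averaged, and A_52_P657360 was 0.14 and 0.069 in the latter settings. Tnnt1 was 0.12 without replicate 3, 0.027 without replicate 4 and 0.013 with replicates 2 and 3 averaged. Signal over background was not compared between the troponin probes.

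The main test is paired, since each array sets a follistatin culture against its own control, and the unpaired form is the methods' t-test.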
